A study of Mus musculus with 14 samples.

Results

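Consensus CUT&Tag peaks were described at the 6 genes that encode the receptor SMADs and their common partner, *Smad1*, *Smad5*, *Smad9*, *Smad2*, *Smad3* and *Smad4*. The genes were chosen by name, and every peak of the 6 deposited lists that overlapped the canonical transcript of one of them or the 20 kb on either side was taken. The 6 genes are members of a set of 21603 protein-coding genes to which the same rule was applied. Receptor SMADs are kept in the cytoplasm until type I receptor kinases phosphorylate them at the carboxy terminus. BMP receptors act on SMAD1, SMAD5 and SMAD9, whereas TGF-β and activin receptors act on SMAD2 and SMAD3. The phosphorylated proteins join SMAD4, enter the nucleus and bind DNA at target genes, and in MuSCs the BMP branch is known to hold back myogenic differentiation. The comparison asks at which of the genes for the transducers themselves the transducers were found on chromatin.

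The MuSCs came from female mice aged 9 weeks of the strain C57BL/6N(Tg(Pax7-EGFP)Tajb), whose transgene places EGFP under control of *Pax7*, and they were sorted by this fluorescence and expanded in culture. All cells were starved for 6 h and received 200 ng/mL soluble BMPR1A, a decoy that takes up BMPs. The BMP6 group was then given 100 ng/mL BMP6 for 1 h, and the control group was given the vehicle, 4 mM HCl with 0.1% BSA. Each library was made from 100000 cells, and antibodies against pSMAD1/5/9, SMAD4 and H3K27ac, a histone mark of active promoters and enhancers, were used with 2 biological replicates per group. The antibody against pSMAD1/5/9 recognizes the phosphorylated BMP SMADs together, so a peak does not tell SMAD1, SMAD5 and SMAD9 apart. In both groups, an H3K27ac peak covered the transcription start site (TSS) of all 8 markers of MuSCs in the list, among them *Pax7*, *Myod1* and *Cdh15*. It covered that of 0 of 4 endothelial, 0 of 4 leukocyte and 0 of 4 fibro-adipogenic markers.

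The pSMAD1/5/9 lists held 7339 peaks after BMP6 and 949 without it, the SMAD4 lists 12860 and 8577, and the H3K27ac lists 78050 and 67790. A list is a consensus of both replicates of a group, limited to peaks with an IDR of at most 0.05. IDR stands here for the global irreproducible discovery rate. It estimates the share of peaks that do not repeat between replicates among all peaks ranked at least as high. The IDR printed for a peak is therefore not the chance for that peak alone. The strength of a peak is given as its rank by signal within its own list, where rank 1 is the strongest, or as that rank in percent of the list. Read counts are not part of the lists, and the sequencing depth under each peak is therefore unknown. No test between the groups was run, since a site missing from a list has no value there and the signals of different lists have no stated common scale. The ranks by the signal of each replicate, which the lists also give, show how far the replicates differ.

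After BMP6, pSMAD1/5/9 peaks were listed at 4 of the 6 genes, *Smad9*, *Smad2*, *Smad3* and *Smad4*, where 29.3% of all genes had one. *Smad1* and *Smad5*, which encode transducers of the BMP branch, had none. In control cells, *Smad3* was the member with a pSMAD1/5/9 peak, 1 of 6 against 6.01% of all genes. For SMAD4, the same 4 genes had a peak after BMP6 (39.6% of all genes), and 3 genes, *Smad5*, *Smad2* and *Smad3*, had one in control cells (31% of all genes). In peaks, 7 of pSMAD1/5/9 and 10 of SMAD4 were listed at the members after BMP6, and 1 and 6 in control cells. All 6 genes had H3K27ac peaks in both groups, where 75.4% of all genes had one after BMP6 and 74% in control cells.

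**Figure D1:**
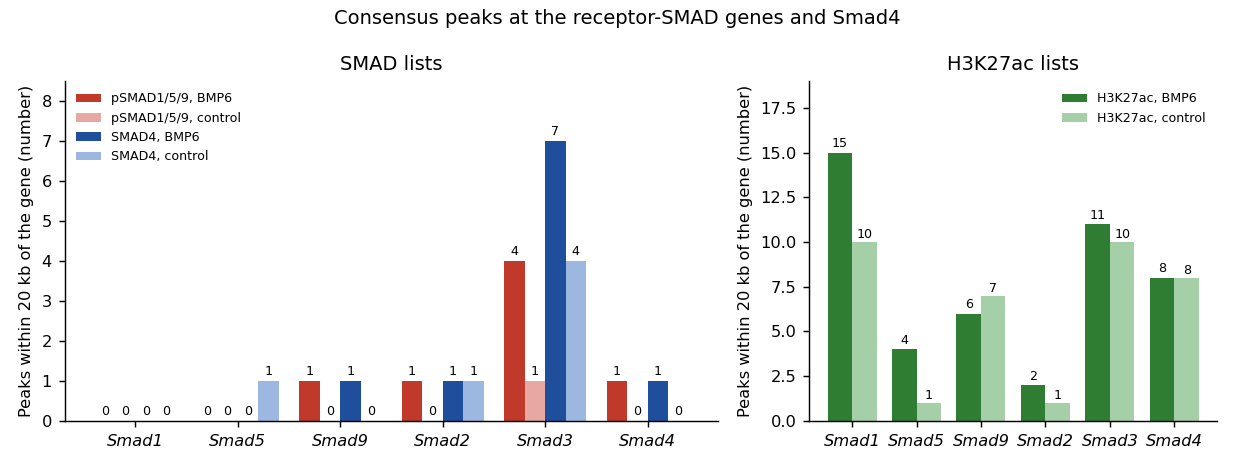
Number of consensus peaks within 20 kb of each gene (vertical axis) in the 4 SMAD lists (left) and the 2 H3K27ac lists (right), with 1 list per antibody and group and the number printed above each bar. *Smad3* held 7 SMAD4 peaks after BMP6 and 4 in control cells, and *Smad1* held no SMAD peak beside 15 and 10 H3K27ac peaks.

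The regions of the members were long, with a median of 102 kb against 56.3 kb over all genes, and a longer region has more room for a peak. Per 100 kb, the members together carried 1.11 pSMAD1/5/9 peaks after BMP6, against 0.590 over the regions of all genes. For SMAD4 the densities were 1.59 against 0.978 after BMP6 and 0.955 against 0.664 in control cells. The density at the members came mostly from *Smad3*, which alone had 4 of the 7 pSMAD1/5/9 peaks and 7 of the 10 SMAD4 peaks. A gene with a pSMAD1/5/9 peak after BMP6 and none in control cells was *Smad9*, *Smad2* or *Smad4*, 3 of 6 against 23.7% of all genes. For SMAD4 this held for *Smad9* and *Smad4*, 2 of 6 against 12.9%, and the reverse, a peak in control cells alone, for *Smad5*, 1 of 6 against 4.27%. Both factors had a peak after BMP6 at the same 4 genes, against 25.6% of all genes.

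*Smad1* (ENSMUSG00000031681.18) lies on the minus strand of chr8:80065023-80126168 in GRCm39 and encodes a receptor SMAD of the BMP branch. None of the 4 SMAD lists held a peak in its region of 101 kb, and with flanks of 50 kb 1 pSMAD1/5/9 peak and 1 SMAD4 peak were counted to it after BMP6. The pSMAD1/5/9 peak nearest to its TSS after BMP6 lay 104.6 kb downstream in the direction of transcription, 0.020 kb from the TSS of *Mmaa*, a mitochondrial gene of vitamin B12 metabolism. In control cells the nearest SMAD4 peak was at -162 kb and the nearest pSMAD1/5/9 peak at -312 kb, where the minus sign denotes upstream. The lack of SMAD peaks stood beside abundant H3K27ac. *Smad1* had 15 H3K27ac peaks after BMP6, which covered 31.1% of its region, and 10 in control cells, which covered 26.9%. After BMP6, 5.12% of all genes had at least as many. All 10 control peaks overlapped a peak after BMP6. The 5 peaks listed after BMP6 alone were weak, with ranks between 56.2% and 99.1% of the list. *Smad1* was among 5874 genes with H3K27ac in both groups and no SMAD peak in any list.

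*Smad5* (ENSMUSG00000021540.18, plus strand, chr13:56850865-56890190) encodes the BMP receptor SMAD most alike to SMAD1. It had a single SMAD peak, in the SMAD4 list of control cells, at chr13:56851378-56851839. The summit lay in intron 1, 703 bp downstream of the TSS. It ranked 6583 of 8577 by signal, and 5876 and 7246 by the signal of each replicate, so it stood in the weaker part of the list in both. After BMP6 no peak was listed there for SMAD4 or pSMAD1/5/9, and the nearest were at -76.2 kb and 341 kb. At an IDR of 0.0269 the control peak did not reach the stricter threshold of 0.01. The H3K27ac peak over the TSS covered this position in both groups.

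*Smad9* (ENSMUSG00000027796.4, plus strand, chr3:54662963-54708680) encodes the third BMP receptor SMAD, also called SMAD8. A pSMAD1/5/9 peak (chr3:54642511-54642990) and a SMAD4 peak (chr3:54642424-54642987) were counted to it after BMP6, and neither factor had a peak in control cells. Both peaks reached into the edge of its region by 28 bp and 25 bp, and their summits lay outside, at -20.1 kb and -20.3 kb. The summits were 37 bp and 168 bp from the TSS of *Exosc8*, which encodes a subunit of the RNA exosome, and this gene was nearer than *Smad9*. The replicates placed the peaks differently. The pSMAD1/5/9 peak ranked 4559 of 7339, with 6405 by the first replicate column and 2689 by the second. The SMAD4 peak ranked 7925 of 12860, with 6464 and 11596. With the summit required inside the region, 3 members had a pSMAD1/5/9 peak after BMP6 and 3 had a SMAD4 peak, *Smad2*, *Smad3* and *Smad4* in both cases.

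*Smad3* (ENSMUSG00000032402.14, minus strand, chr9:63554049-63665476) encodes a receptor SMAD of the TGF-β and activin branch and was the longest of the 6 genes, with 111 kb. It had 4 pSMAD1/5/9 and 7 SMAD4 peaks after BMP6, numbers that 2.30% and 1.12% of all genes reached or passed. All SMAD peaks lay in introns of the canonical transcript, with none at its TSS, although H3K27ac covered this TSS in both groups. The 4 pSMAD1/5/9 summits were 31.6 kb, 55.4 kb, 92.8 kb and 94.6 kb from the TSS, the first pair in intron 1, the next in intron 4 and the last in intron 5. In control cells a pSMAD1/5/9 peak was listed at another site, 14.2 kb from the TSS in intron 1. Its summit lay 705 bp from the start of another annotated *Smad3* transcript. The pSMAD1/5/9 summit at 92.8 kb lay 1170 bp from the start of a further one. The sequences of 200 bases around the pSMAD1/5/9 summits that did not touch a UTR follow, since they show what lay under these intronic sites. They are given 5′ to 3′ on the plus strand of GRCm39, against the direction of *Smad3*, and capitals mark matches to the motifs described after them. In the last sequence, capitals mark the BMP response element alone, and matches to other motifs there are not marked.
Site at 55.4 kb, chr9:63609959-63610158: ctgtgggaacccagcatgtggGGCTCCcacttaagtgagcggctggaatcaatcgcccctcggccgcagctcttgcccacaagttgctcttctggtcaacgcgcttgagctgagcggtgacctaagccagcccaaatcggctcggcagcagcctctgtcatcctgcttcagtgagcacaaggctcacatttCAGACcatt
Site at 31.6 kb, chr9:63633804-63634003: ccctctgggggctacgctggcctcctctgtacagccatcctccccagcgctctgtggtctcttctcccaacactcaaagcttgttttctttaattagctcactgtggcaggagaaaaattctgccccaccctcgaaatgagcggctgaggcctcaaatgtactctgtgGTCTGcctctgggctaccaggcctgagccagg
Site at 92.8 kb, chr9:63572559-63572758: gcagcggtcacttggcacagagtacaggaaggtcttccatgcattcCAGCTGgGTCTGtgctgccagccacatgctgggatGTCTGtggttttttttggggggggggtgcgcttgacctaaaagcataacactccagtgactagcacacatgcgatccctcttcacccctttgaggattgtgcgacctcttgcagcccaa
Site at 14.2 kb, chr9:63651152-63651351: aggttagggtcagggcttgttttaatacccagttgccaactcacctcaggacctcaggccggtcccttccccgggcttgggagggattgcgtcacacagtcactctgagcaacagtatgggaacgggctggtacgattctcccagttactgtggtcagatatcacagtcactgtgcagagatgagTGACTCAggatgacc
Element in the SMAD4 peak at 55.5 kb, chr9:63609508-63609582: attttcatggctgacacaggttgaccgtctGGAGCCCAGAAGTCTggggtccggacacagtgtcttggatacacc

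The motifs were searched on both strands, so that GGCTCC is a match to GGAGCC and GTCTG a match to CAGAC, and adjoining matches form longer runs of capitals. GGCGCC and GGAGCC are GC-rich SMAD sequences, CAGAC is the basic SMAD-binding element, GTCTAGAC its palindrome, CAGCTG an E-box of the kind bound by MYOD1, and TGACTCA or TGAGTCA the AP-1 site. The BMP response element joins GGCGCC or GGAGCC to GTCT after a gap of 5 bases. In windows of 200 bp centred on the 7 pSMAD1/5/9 summits after BMP6, CAGAC was found in 5, against 48.6% of all windows of that list. GGAGCC was found in 2 (25.2%), CAGCTG in 1 (31.1%), and GGCGCC (7.75%), GTCTAGAC (0.518%), the AP-1 site (15.5%) and the BMP response element (0.286%) in 0. Around the 10 SMAD4 summits after BMP6, CAGAC was found in 5 windows (53.4% of the list), CAGCTG in 3 (29.1%), GGAGCC in 2 (23.6%) and GGCGCC in 1 (7.53%). The counts depended on the window. Over the whole pSMAD1/5/9 peaks, CAGAC was found in 6 of 7 (80.4% of the list), GGAGCC in 4 (53.1%), CAGCTG in 4 (55.1%) and GGCGCC in 2 (18.95%), whereas within windows of 100 bp CAGAC was found in 3. The windows at neighbouring summits of both factors share sequence, so these counts are not independent. The site at 55.4 kb holds GGAGCC and CAGAC, that at 31.6 kb CAGAC, and that at 92.8 kb CAGAC at 2 places and an E-box. The site at 14.2 kb holds the AP-1 site and none of the SMAD motifs. The last sequence is the BMP response element that lay in the SMAD4 peak at 55.5 kb after BMP6, 435 bp from its summit and outside the pSMAD1/5/9 peak. Such an element was in 0.630% of all whole SMAD4 peaks of that list. A match is a description of letters and not a tested site.

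The strongest pSMAD1/5/9 peak at *Smad3* was at 55.4 kb (chr9:63609811-63610326), which ranked 3387 of 7339, and 3617 and 3040 by replicate. It lay in the middle of its list, whereas the SMAD4 peak at the same site was the strongest SMAD4 peak at any member. SMAD4 ranked there 1725 of 12860 after BMP6, and 1675 and 2041 by replicate, and 1915 of 8577 in control cells, and 3061 and 1037 by replicate. In percent of the list, the replicate ranks ran from 13.0% to 15.9% after BMP6 and from 12.1% to 35.7% in control cells, so they overlapped. The site at 31.6 kb (chr9:63633661-63634230) was listed for both factors after BMP6 and for neither in control cells. pSMAD1/5/9 ranked 3842 there, and 3969 and 3465 by replicate, and SMAD4 ranked 11080 of 12860, and 10850 and 10559 by replicate. This site was therefore weak for SMAD4 in both replicates. The site at 92.8 kb (chr9:63572461-63573003) ranked 5489 for pSMAD1/5/9, and 4520 for SMAD4 after BMP6 and 4685 of 8577 in control cells. The peak at 94.6 kb was the weakest, with rank 7317 of 7339 and an IDR of 0.0497, and its summit lay 385 bp away from that of the neighbouring SMAD4 peak at 95.0 kb.

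The site at 14.2 kb of *Smad3* went against the general direction. Its pSMAD1/5/9 peak was listed in control cells (chr9:63651001-63651440), with rank 908 of 949, and 890 and 933 by replicate, and not after BMP6. Over the whole list, 84.7% of the control pSMAD1/5/9 peaks were listed again after BMP6. With an IDR of 0.0487 the peak was just within the threshold, and a site below the threshold is not listed. SMAD4 was listed at the same position in both groups, with the summits at 14244 bp and 14242 bp from the TSS. It ranked 3635 of 12860 after BMP6, and 3241 and 4911 by replicate, and 2770 of 8577 in control cells, and 4660 and 1298 by replicate. The remaining SMAD4 peaks of *Smad3*, at 41.9 kb and 107 kb, were listed after BMP6 alone, with ranks 11995 and 8111 of 12860. The peak at 41.9 kb was the SMAD peak of the members that overlapped no H3K27ac peak in either group.

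**Figure D2:**
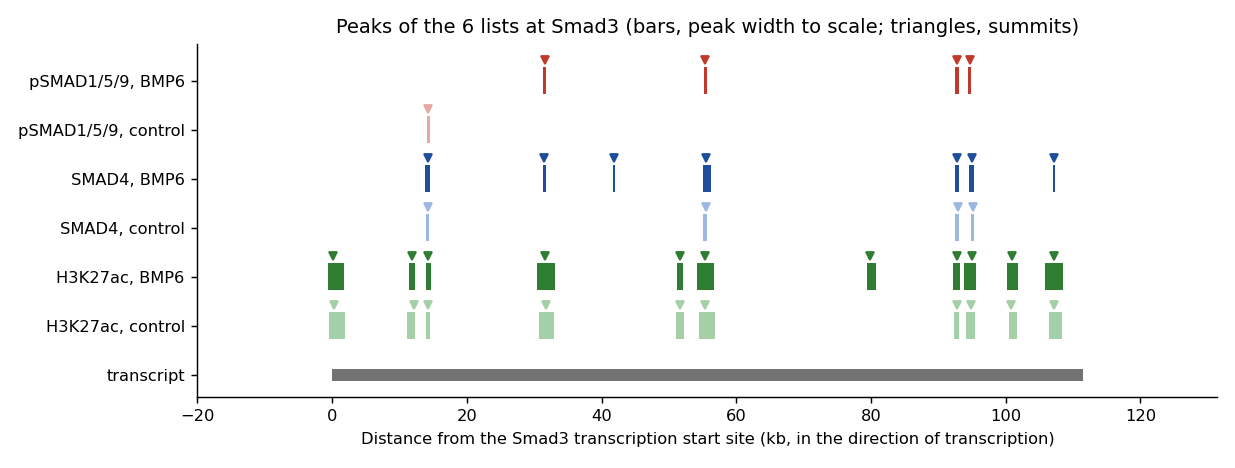
Peaks of the 6 lists at *Smad3* by distance from its TSS in kb, in the direction of transcription, with bars to scale for peak width and triangles for summits. SMAD4 was listed at 4 sites in both groups, and pSMAD1/5/9 at 4 sites after BMP6 and at 14.2 kb in control cells.

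*Smad2* (ENSMUSG00000024563.18, plus strand, chr18:76374772-76437801) encodes the other receptor SMAD of the TGF-β and activin branch. It held the strongest pSMAD1/5/9 peak of the 6 genes. The peak (chr18:76374130-76375050) was listed after BMP6 and covered the TSS, with the summit at -420 bp, 14 bp from the start of another annotated *Smad2* transcript. It ranked 709 of 7339, in the top 9.66%, and 745 and 751 by the signal of each replicate, so the replicates placed it alike. Its IDR was 9.34e-05. No pSMAD1/5/9 peak was listed at *Smad2* in control cells, where the nearest lay at -130 kb. SMAD4, by contrast, was listed at the same place in both groups, with the summit at -395 bp in each. After BMP6 the SMAD4 peak ranked 3727 of 12860, and 3032 and 6041 by replicate. In control cells it ranked 2182 of 8577, and 4804 and 792 by replicate. In percent of the list these replicate ranks ran from 23.6% to 47.0% after BMP6 and from 9.23% to 56.0% in control cells, so the ranges overlapped. The control SMAD4 peak had an IDR of 0.0472, close to the threshold.

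At the TSS itself, *Smad2* was the member with a pSMAD1/5/9 peak after BMP6, 1 of 6 against 8.91% of all genes. A SMAD4 peak covered the TSS of *Smad2* and *Smad4* after BMP6, 2 of 6 against 13.2%. In control cells a SMAD4 peak covered the TSS of 0 of 6 members, against 8.86% of all genes, since the narrower control peak at *Smad2* ended upstream of it.

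**Figure D3:**
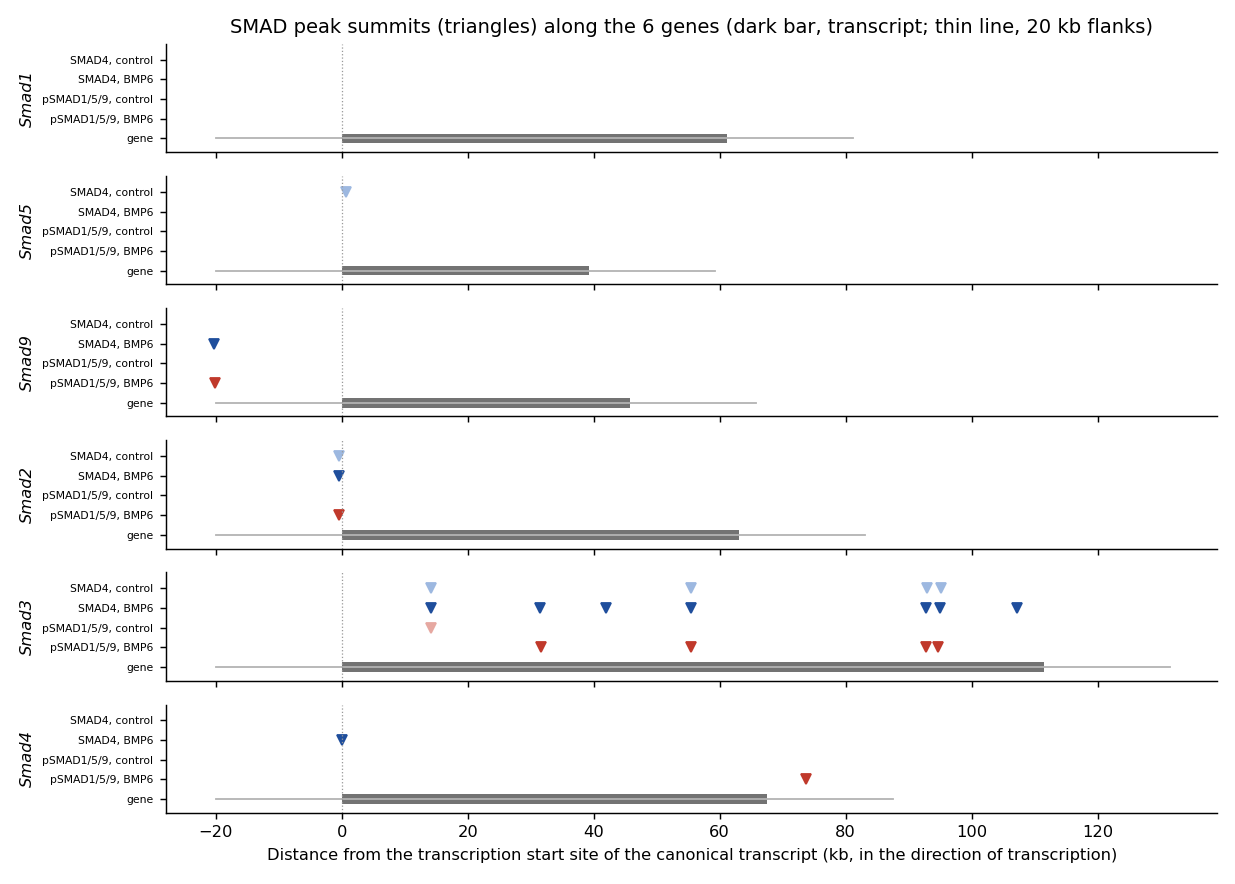
Summits of the SMAD peaks (triangles) by distance from the TSS of the canonical transcript in kb, for each gene and SMAD list, with the transcript as a dark bar and the flanks of 20 kb as a thin line. The pSMAD1/5/9 summit at *Smad2* lay at the TSS, those at *Smad3* lay in the gene body, that of *Smad4* lay in the downstream flank, and that counted to *Smad9* lay just beyond its flank.

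*Smad4* (ENSMUSG00000024515.15, minus strand, chr18:73769343-73836915) encodes the partner that receptor SMADs of both branches share. After BMP6 a SMAD4 peak of 202 bp lay over its own TSS, with the summit at 50 bp in exon 1. It ranked 10286 of 12860, and 8966 and 12340 by replicate, and its IDR of 0.0456 was close to the threshold. A pSMAD1/5/9 peak was listed downstream of the gene, 73.7 kb from the TSS, and ranked 6965 of 7339, and 7119 and 6275 by replicate. It overlapped no SMAD4 peak. Among the TSSs of canonical transcripts of protein-coding genes, the nearest was that of *Mex3c*, 57.1 kb away, which encodes an RNA-binding ubiquitin ligase. The start of another annotated *Smad4* transcript lay nearer to the peak. Control cells had no SMAD peak in the region, and their nearest SMAD4 peak lay at 131 kb, 0.484 kb from the TSS of *Mex3c*. The listed pSMAD1/5/9 and SMAD4 peaks thus lay toward opposite ends of *Smad4*. Both were weak and had an IDR near the threshold, 0.0403 for the pSMAD1/5/9 peak. With flanks of 5 kb this pSMAD1/5/9 peak was not counted to the gene.

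Of the 7 pSMAD1/5/9 peaks at the members after BMP6, 6 overlapped a SMAD4 peak of the same cells, against 73.2% of the whole list. The exception was the peak downstream of *Smad4*. A SMAD4 peak of control cells lay at 3 of the 7, those at *Smad2* and at 55.4 kb and 92.8 kb of *Smad3*, against 57.2% of the list. None of the 7 overlapped a pSMAD1/5/9 peak of control cells, against 11.4% of the list. Of the 10 SMAD4 peaks after BMP6, 6 overlapped a pSMAD1/5/9 peak (42.7% of the list) and 5 a control SMAD4 peak (45.5%). Of the 6 control SMAD4 peaks, 5 were listed again after BMP6 (69.7%), and the other was that of *Smad5*.

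The order of the 4 genes by their strongest pSMAD1/5/9 peak was *Smad2* (9.66% of the list), *Smad3* (46.2%), *Smad9* (62.1%) and *Smad4* (94.9%). The replicate ranks of *Smad9*, from 36.6% to 87.3%, overlapped those of *Smad3*, from 41.4% to 49.3%, and those of *Smad4*, from 85.5% to 97.0%, so these neighbours did not differ beyond their spread. *Smad2*, with 10.2% in both replicates, stood apart from *Smad3*. By SMAD4 after BMP6 the order was *Smad3* (13.4%), *Smad2* (29.0%), *Smad9* (61.6%) and *Smad4* (80.0%). Here the replicate ranks of *Smad9*, from 50.3% to 90.2%, overlapped those of *Smad4*, from 69.7% to 96.0%, and neither overlapped those of *Smad2*.

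**Figure D4:**
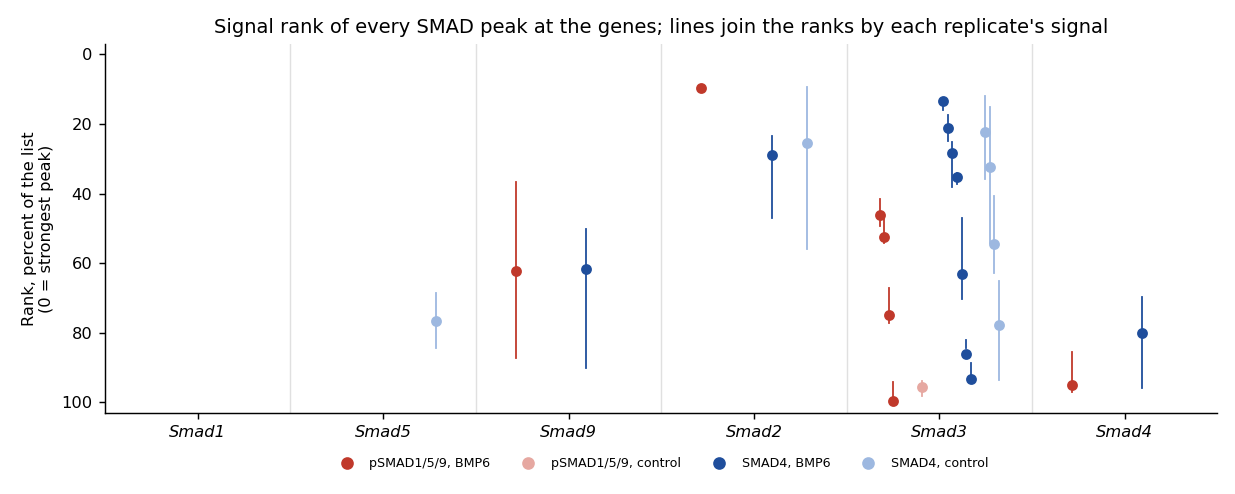
Rank of every SMAD peak at the 6 genes in percent of its list (vertical axis, 0 is the strongest), by gene and list, where points are consensus peaks and lines join the ranks by the signal of the 2 replicates. The pSMAD1/5/9 peak of *Smad2* at 9.66% was the strongest of its kind, and the lines of *Smad9* were the longest among the peaks after BMP6.

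Many SMAD peaks at the members had an IDR near the limit. At an IDR of at most 0.01, pSMAD1/5/9 peaks after BMP6 remained at *Smad2* and *Smad3*, 2 of 6 against 17.4% of all genes, and SMAD4 peaks after BMP6 at the same pair, 2 of 6 against 25.4%. In control cells, 0 of 6 members had a pSMAD1/5/9 peak at this threshold, against 0.921% of all genes, and *Smad3* had a SMAD4 peak, 1 of 6 against 16.3%.

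H3K27ac covered the TSS of all 6 members in both groups, against 51.8% of all genes after BMP6 and 49.9% in control cells. The peak over the TSS of *Smad1* was the strongest, at 1.72% of the list after BMP6 and 4.39% in control cells. It was followed by *Smad5* with 3.53% and 6.47%, and by *Smad2* with 6.48% and 7.86%. The replicate ranks of these 3 genes mostly overlapped. After BMP6 they ran from 0.698% to 3.67% at *Smad1*, from 1.42% to 7.14% at *Smad5* and from 2.50% to 12.8% at *Smad2*. In control cells they ran from 3.37% to 5.76%, from 4.47% to 9.05% and from 7.26% to 8.58%, so that *Smad1* and *Smad2* were apart there. *Smad4* was at 12.9% and 17.2%, *Smad9* at 17.8% and 38.5%, and *Smad3* at 33.2% and 26.2%. The replicate ranks of both groups overlapped for 5 of the 6 genes. The exception was *Smad9*, from 16.0% to 19.4% after BMP6 and from 28.8% to 50.4% in control cells. Such a separation with stronger ranks after BMP6 was found at 30.6% of the 10606 genes with a peak over the TSS in both lists, and in the other direction at 4.39%. Ranks in percent depend on the length of the list, and 1 of 6 members is not above this background.

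**Figure D5:**
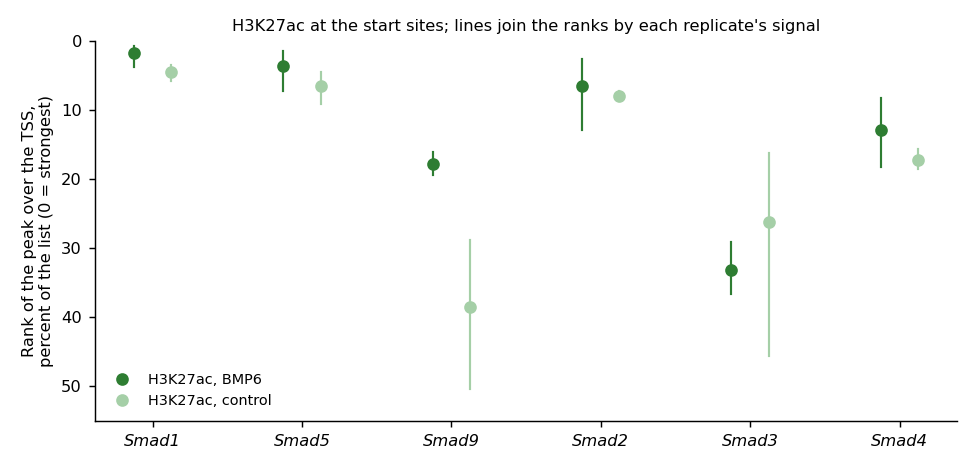
Rank of the H3K27ac peak over the TSS of each gene in percent of its list (vertical axis, 0 is the strongest) after BMP6 and in control cells, where points are consensus peaks and lines join the ranks by the signal of the 2 replicates. *Smad1* was highest in both groups, at 1.72% and 4.39%, and the lines of both groups were apart at *Smad9* alone.

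The total number of H3K27ac peaks, those over the TSS included, differed between the genes. *Smad3* had 11 peaks after BMP6 and 10 in control cells, *Smad4* 8 and 8, *Smad9* 6 and 7, *Smad5* 4 and 1, and *Smad2* 2 and 1. Those of *Smad9* include peaks at the TSS of *Exosc8* and of *Rfxap*, and with the gene body alone it had 1 and 2. Together the members had 46 and 37. Of the 46, 31 overlapped a control peak, against 72.0% of the whole list, and of the 37, 31 overlapped a peak after BMP6 (86.8%). The 15 peaks without a control counterpart ranked between 56.2% and 99.1% of the list, so none was among its stronger peaks. At *Smad4*, 5 of 8 peaks in each group had no counterpart in the other, all of them at 62.2% of the list or weaker.

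From 250 bases upstream to 50 bases downstream of the TSS, the promoters of the members had a GC content between 55% (*Smad1*) and 77% (*Smad2*), with a median of 54.3% over all promoters. GGCGCC was found in those of *Smad2* and *Smad4*, at 2 places each, and of *Smad5* and *Smad9*, at 1 place each, and in 12.5% of all promoters. The promoters of *Smad1* and *Smad3* held none. GGAGCC was found in those of *Smad9*, *Smad2* and *Smad3* (31.5% of all promoters). The basic SMAD-binding element was found in those of *Smad9*, *Smad3* and *Smad4* (48.4%), and the AP-1 site in that of *Smad1* (4.67%). The E-box (14.6%), the palindrome (0.268%) and the BMP response element (0.245%) were in no promoter of a member. The shares over all promoters were not matched for GC content.

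The genes most like each member were found from the percentile of the strongest peak in each of the 6 lists, from 100 for the strongest peak of a list to 0 for no peak, by the mean absolute difference over the lists, among genes over 1 Mb away. For *Smad2* they were *Plekho1* and *Vps45*, which shared their strongest peaks with each other, with a difference of 2.45. For *Smad3* they were *Nhsl3* (3.56) and *Apba3* (3.99), for *Smad9* *Atl3* and *Rtn3* (1.15 each), for *Smad4* *Mcmbp* (1.16) and *Polr3b* (1.25), and for *Smad5* *Plekha4* (0.443) and *Clock* (0.487). None of these pairs was named again when the number of peaks per list was compared instead. For *Smad9*, the strongest peak in each list that held one was next to the TSS of *Exosc8*, with its summit beyond the flank of *Smad9*. Its likeness therefore describes that site.

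Among other genes of the pathway, the inhibitory SMADs differed from the members in strength. *Smad6* and *Smad7*, which encode proteins that block receptor SMADs, had 3 and 5 pSMAD1/5/9 peaks after BMP6, the strongest at rank 90 and 15 of 7339, and none in control cells. Their SMAD4 peaks numbered 9 each after BMP6, with the strongest at rank 10 and 7 of 12860. In control cells they numbered 4 and 3, with the strongest at rank 30 and 15 of 8577. The strongest pSMAD1/5/9 peak of a member, that of *Smad2*, was at rank 709. Over the 47 genes of all pathway lists, 30 had a pSMAD1/5/9 peak after BMP6 (29.3% of all genes) and 7 in control cells (6.01%). A SMAD4 peak was listed at 37 after BMP6 (39.6%) and at 32 in control cells (31%). The counts of the single lists that follow are for pSMAD1/5/9 after BMP6 and stand against the same 29.3%. Of the type I receptors, 2 of 7 had a pSMAD1/5/9 peak after BMP6, *Acvrl1* and *Acvr1*. Of the type II receptors 3 of 5 had one, *Bmpr2*, *Tgfbr2* and *Amhr2*. The counts were 6 of 8 for ubiquitin ligases and deubiquitinases, 3 of 4 for SMAD phosphatases, 3 of 4 for corepressors, 1 of 3 for anchors and membrane partners, 6 of 10 for coactivators and DNA-binding partners, and 4 of 4 for the *Id* genes. A peak in the top 5% of the pSMAD1/5/9 list was found at *Smad6*, *Smad7*, *Usp9x*, *Skil*, *Id1* and *Id3*. *Skil*, which encodes the corepressor SNON, had the strongest peak of the list, at -0.17 kb, and the X-linked *Usp9x*, a deubiquitinase of SMAD4, ranked 182 at -0.156 kb. In control cells, *Usp9x*, *Skil* and *Id3* also had 1 pSMAD1/5/9 peak each, whereas *Smad6*, *Smad7* and *Id1* had none. The share of all genes with a peak in the top 5% is not given here.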

How the data were processed

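CUT&Tag for pSMAD1/5/9, SMAD4 and H3K27ac in mouse MuSCs gave 12 of the 14 samples, which entered 6 consensus lists, 1 per antibody and group. The labels define the groups, and the 2 libraries that lacked a primary antibody are not analysed here. According to the methods, for each antibody the authors reduced all libraries to the same number of reads, which were aligned to GRCm39 (per the submitters' processing notes with Bowtie2 2.5.4, SAMtools 1.21 and bedtools 2.31.1), then called peaks per replicate with JAMM and combined both replicates with IDR at a threshold of 0.05. The deposited signal and the deposited scaled IDR are scores without a common scale, and the authors' IDR is given as −log10 of the value. The signal of each consensus peak equalled the sum of the signals of both replicates. The replicate columns carry no number, and read depth is unknown.

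Coordinates were converted to 1-based. Genes were the canonical transcripts of 21603 protein-coding genes of GENCODE on the 20 chromosomes of the lists. A gene was counted with a peak if the peak overlapped the transcript or the 20 kb on either side by at least 1 bp. The same minimum of 1 bp made peaks of different lists shared. Motifs were counted within 200 bp centred on the summit. All SMAD peaks of the members are named, other pathway genes with a pSMAD1/5/9 peak in the top 5% of the list, and the 2 most like genes of each member with a SMAD peak. The receptors with a peak and the genes nearest to peaks outside the members were named after their values were seen. Protein sequences were not used here. No test between groups was run, since a site missing from a list has no value there. The members, lists and motifs were chosen with earlier results of these data known. Alternatives covered the region, the transcripts, the IDR threshold, the list length, merged peaks, the overlap, the ranking value, the autosomes, the motif window and the measure of likeness. The counting was tested on simulated data. Python 3.11.15, numpy 2.4.6, pandas 2.3.3, pysam 0.24.0, samtools 1.23.1 and matplotlib 3.10.9 were used.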

Additional observations from a re-analysis of the deposited data

How the results depend on the processing

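Counts of members or peaks were compared under other settings, and 87 of 113 stayed within 1.5 times. Some of these could not move. The control lists were the shorter ones, so a cut to the length of the shorter list left them whole. Merging overlapping peaks changed none of the counts. With the gene body alone or flanks of 5 kb, 2 members had a pSMAD1/5/9 peak after BMP6. Of 56 motif counts, 13 moved by over 1.5 times with the whole peak and 9 with 100 bp, 22 in all. With flanks of 50 kb, *Smad1* gained a pSMAD1/5/9 and a SMAD4 peak after BMP6, and the members had 72 H3K27ac peaks after BMP6. With the promoter alone (1.5 kb upstream to 0.5 kb downstream), 1 member had 1 pSMAD1/5/9 peak after BMP6 and 0 in control cells, 2 members had 2 SMAD4 peaks after BMP6 and 1 member had 1 in control cells, and 7 H3K27ac peaks were left in each group. At an IDR of at most 0.01, 2 members had 3 pSMAD1/5/9 peaks after BMP6 and 0 in control cells, 2 members had 5 SMAD4 peaks after BMP6, and 1 member had 1 in control cells. At that threshold 2 pSMAD1/5/9 peaks overlapped a SMAD4 peak, 2 SMAD4 peaks overlapped a pSMAD1/5/9 peak, and 1 SMAD4 peak overlapped a control peak. With as many of the strongest pSMAD1/5/9 peaks after BMP6 as in the control list, 1 member had 1 peak, that of *Smad2*. Fewer peaks or shorter regions lower these counts by construction. Requiring the summit inside the region, chosen after seeing the data, left 3 members for each factor after BMP6. Of 24 ranks of strongest peaks, the first replicate column left out moved 7 and the second 1, by more than the SD of the replicate ranks. This SD comes from the same ranks and is small where the replicates are alike. The pSMAD1/5/9 rank of *Smad2* thus counted as moved, at 9.66% against 10.2%. That of *Smad9* did not, at 62.1% against 36.6% and 87.3%. These counts therefore do not show which ranks are stable. Ranking by the IDR score moved 13 by the same measure. This score has a maximum of 1000, at which peaks tie at the top rank, and every strongest H3K27ac peak was at this maximum. Moves through such ties do not show how stable a rank is. No paired analysis was possible because the replicate columns carry no numbers and each group has 1 list. The number of replicates limits the precision of the ranks.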

Other observations

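The genes of the TGF-β branch lie on the same chromosomes as the inhibitory SMADs, *Smad3* with *Smad6* and *Smad2* with *Smad7*, so the sequence between each pair was counted as well. *Smad4* also lies on chromosome 18, that of *Smad2* and *Smad7*, and was not paired. The 195 kb between *Smad3* and *Smad6* hold no other protein-coding gene of the set. They had 3 pSMAD1/5/9 peaks after BMP6 and 0 in control cells, 3 and 2 SMAD4 peaks, and 8 and 6 H3K27ac peaks. The 846 kb between *Smad7* and *Smad2* hold 2 such genes and had 24 and 2 pSMAD1/5/9 peaks, 36 and 18 SMAD4 peaks, and 93 and 84 H3K27ac peaks. Which gene these peaks belong to cannot be read from the lists. Over the regions of all genes, 0.590 pSMAD1/5/9, 0.978 SMAD4 and 5.33 H3K27ac peaks were listed per 100 kb after BMP6. In control cells the densities were 0.0823, 0.664 and 4.68. Those regions include the genes themselves, so they are not matched to the sequence between the pairs.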
